A study of Mus with 9 samples.

Results

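The genes described are 10 markers of the subfields of the mouse hippocampus, out of 22206 probe sets measured on Clariom S Mouse arrays. They were taken by gene symbol from a list of known markers, chosen with earlier results of these data known: Prox1, Dsp, C1ql2 and Calb1 for the dentate gyrus, Wfs1 and Fibcd1 for CA1, Amigo2, Rgs14 and Pcp4 for CA2, and Bok for CA3. Each of the 10 had 1 probe set. The question was whether the hippocampi of the 3 groups held the same balance of subfields, as a check on dissection.

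Hippocampal RNA was hybridized to 9 arrays, 3 for each of 3 groups of mice. The design text of the series speaks of duplicate samples, while the records give 3, and nothing states whether an array holds RNA of a single mouse. SAMR1, a senescence-resistant inbred line, and SAMP8, a senescence-prone line with early memory loss, received vehicle for 30 days. The TG-treated SAMP8 mice received trigonelline (TG), a plant alkaloid, as an oral daily dose of 5 mg/kg over the same period. The SAMP8 mice were males given as 16 weeks old, with 1 week of acclimatization before dosing. After the 30 days all groups were tested for 8 days in the Morris water maze, with TG continued. The age at which the hippocampi were taken is not stated. Age and sex are not stated for the SAMR1 mice, and the records name the vehicle as saline although TG was dissolved in water. SAMR1 and SAMP8 are separate lines, so each is 1 genetic background. The records also carry a free-text note about a macrophage cell line, which goes against their tissue label. All 6 genes of a list for excitatory neurons lay above the array medians of 6.04 to 6.09 in every group, the lowest being Neurod2 at 7.76 to 8.27. Slc17a7, the vesicular glutamate transporter of hippocampal and cortical excitatory neurons, was at 18.02 to 18.12 on the log2 scale, and the excitatory neuron factor Neurod6 at 14.85 to 14.88.

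The values used are the authors' group averages of log2 signal. The spread between the 3 arrays of a group was not analysed here, so no difference below has an error or a test, and which neighboring averages of a gene differ beyond that spread was not assessed. Differences are given on the log2 scale, group named first minus group named second. A difference of 1.5-fold or more (0.585 on the log2 scale) was counted as higher or lower, and the counts of markers are read beside the share of all probe sets past the same limit. In whole tissue, fewer cells of a type and less RNA per cell cannot be told apart.

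The hippocampus is a loop of cell fields. Granule cells of the dentate gyrus send mossy fibers to the pyramidal cells of CA3, which project to CA1, the main output field, and CA2 is a narrow field between them with its own plasticity and a role in social memory. Each field has genes that it expresses more strongly than its neighbors, so that a piece of tissue with more of one field would show that field's genes together at higher signal. No marker is absolute: calbindin is also made by CA1 pyramidal cells and interneurons, and Pcp4 also by neurons of the thalamus, cortex and striatum.

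**Figure D1:**
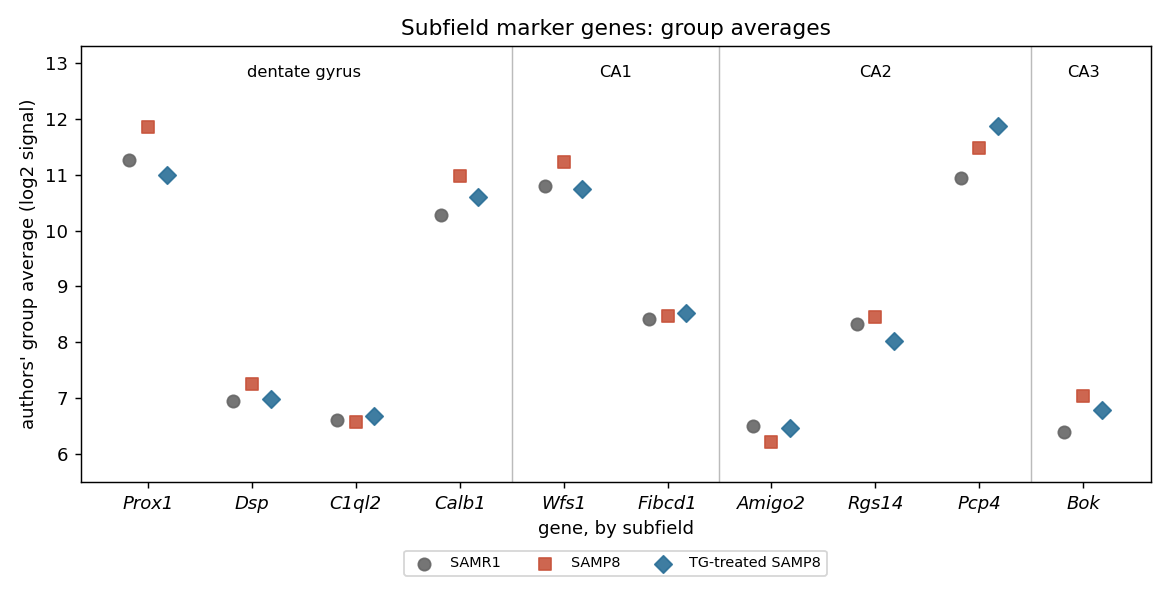
Authors' group averages (log2 signal, vertical axis) of the 10 subfield marker genes, grouped by subfield along the horizontal axis, with a circle for SAMR1, a square for SAMP8 and a diamond for TG-treated SAMP8. There are no error bars because only averages were used. Prox1, Calb1, Wfs1 and Pcp4 lie above 10 in all groups, while C1ql2 and Amigo2 lie below 7 in all groups.

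The dentate gyrus markers did not share 1 pattern. Prox1, the homeobox factor that sets and keeps granule cell identity (chromosome 1 from 190118035 to 190170827, GRCm38), averaged 11.26 for SAMR1, 11.85 for SAMP8 and 11.00 for SAMP8 given TG. It was therefore highest in SAMP8 and lowest with TG, with 1.51-fold more signal in SAMP8 than in SAMR1 and 1.8-fold less with TG than in SAMP8. Calb1, the calcium buffer calbindin (chromosome 4 from 15881264 to 15906709), averaged 10.28 for SAMR1, 10.98 for SAMP8 and 10.60 for SAMP8 given TG. It too was highest in SAMP8, by 0.70 over SAMR1, but with TG it stayed 0.32 above SAMR1, whereas Prox1 with TG lay at -0.26 from SAMR1. Dsp, which encodes the desmosome protein desmoplakin (chromosome 13 from 38151294 to 38198577), averaged 6.95 for SAMR1, 7.26 for SAMP8 and 6.98 for SAMP8 given TG. Its SAMP8 average was 0.31 above SAMR1, and its SAMR1 and TG averages were 0.03 apart. C1ql2, a secreted C1q-like protein of mossy fiber synapses (chromosome 1 from 120340582 to 120343174), averaged 6.61 for SAMR1, 6.57 for SAMP8 and 6.68 for SAMP8 given TG. The 3 averages of C1ql2 spanned 0.11, and its difference of -0.04 between SAMP8 and SAMR1 changed sign, to 0.01, when each group was centred on its median.

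The pair of CA1 markers also parted. Wfs1, which encodes the endoplasmic reticulum protein wolframin and marks dorsal CA1 pyramidal cells (chromosome 5 from 36966104 to 36988982), averaged 10.79 for SAMR1, 11.23 for SAMP8 and 10.75 for SAMP8 given TG. SAMP8 was the high group, by 0.44 over SAMR1 and by 0.48 over TG-treated SAMP8, and the other 2 groups were 0.04 apart. Fibcd1, a transmembrane receptor with a fibrinogen-like domain (chromosome 2 from 31813290 to 31846964), averaged 8.41 for SAMR1, 8.47 for SAMP8 and 8.52 for SAMP8 given TG. Its 3 averages spanned 0.11, as those of C1ql2 did. The 0.06 of Fibcd1 between SAMP8 and SAMR1 turned to -0.08 when set against the median of probe sets of like signal.

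The 3 CA2 markers took 3 different orders of the groups. Pcp4, the small calmodulin-binding protein PEP-19 (chromosome 16 from 96467606 to 96525793), averaged 10.94 for SAMR1, 11.48 for SAMP8 and 11.86 for SAMP8 given TG. It was the member with the largest span of averages, 0.92, and was higher in SAMP8 than in SAMR1 and higher again with TG. Rgs14, a regulator of G protein signaling that limits synaptic plasticity in CA2 (chromosome 13 from 55369732 to 55384687), averaged 8.33 for SAMR1, 8.45 for SAMP8 and 8.02 for SAMP8 given TG. The TG group was its low group, at -0.43 from SAMP8 and -0.31 from SAMR1. Amigo2, an adhesion molecule of the leucine-rich repeat class (chromosome 15 from 97244074 to 97247287), averaged 6.50 for SAMR1, 6.22 for SAMP8 and 6.47 for SAMP8 given TG. SAMP8 was lowest for Amigo2, by 0.28 below SAMR1, and the other 2 groups were 0.03 apart.

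CA3 had a single marker. Bok, a member of the BCL2 family of cell death regulators (chromosome 1 from 93685575 to 93695770), averaged 6.39 for SAMR1, 7.05 for SAMP8 and 6.79 for SAMP8 given TG. It was highest in SAMP8, by 1.58-fold over SAMR1, and with TG it lay between the other groups.

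Between SAMP8 and SAMR1, 3 of the 10 markers were higher in SAMP8 by 1.5-fold or more, namely Calb1, Bok and Prox1, and 0 were lower. Of all 22206 probe sets, 5.0% were higher and 6.08% lower by that fold. The 0.59 of Prox1 lies within 0.01 of the limit, and the averages are rounded to 2 decimals. At a fold of 1.1 or more, 6 markers were higher, against 33.0% of all probe sets, and 1 (Amigo2) was lower, against 32.5%. At 2-fold, 0 markers were higher and 0 lower, against 0.838% and 1.47% of all probe sets. The median difference of the 10 was 0.38, where that of all probe sets was 0.00. Higher averages in SAMP8 were found for 8 of the 10, and for 49.5% of all probe sets. The differences ran from -0.28 for Amigo2 to 0.70 for Calb1, which lay at percentile 97.1 of all probe sets, with ties split evenly.

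Between TG-treated and nontreated SAMP8, 1 marker, Prox1, was lower by 1.5-fold or more and 0 were higher, against 3.74% and 4.48% of all probe sets. The difference of Prox1 was -0.85, at percentile 0.768 of all probe sets. At 1.1-fold, 6 markers were lower, against 31.0% of all probe sets, and 2 (Pcp4 and Amigo2) were higher, against 32.4%. At 2-fold, the count was 0 in both directions, with a background of 0.342% lower and 0.473% higher. The median difference of the 10 was -0.27, beside 0.01 for all probe sets. After Prox1, the lowest were Wfs1 at -0.48, Rgs14 at -0.43 and Calb1 at -0.38, and Pcp4 was highest at 0.38. Both comparisons use the same SAMP8 arrays, so a SAMP8 average that is high by itself gives a positive first and a negative second difference.

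Between TG-treated SAMP8 and SAMR1, a comparison that leaves out the vehicle-treated SAMP8 arrays, Pcp4 was the 1 marker higher by 1.5-fold or more, at 0.92 or 1.89-fold, and 0 were lower. Of all probe sets, 5.62% were higher and 4.83% lower by that fold, and the difference of Pcp4 lay at percentile 98.4. At 1.1-fold, 3 markers were higher (Pcp4, Bok and Calb1) and 2 lower (Rgs14 and Prox1), with a background of 31.6% and 33.3%. At 2-fold, both counts were 0, beside 1.13% and 0.712%. The median of the 10 differences was 0.05, and that of all probe sets was -0.01. For 5 of the 10 markers (Dsp, C1ql2, Wfs1, Fibcd1 and Amigo2) the difference was 0.11 or less in size. These averages were taken from the separate tables of the comparisons, in which the SAMP8 averages differed for 0 probe sets.

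**Figure D2:**
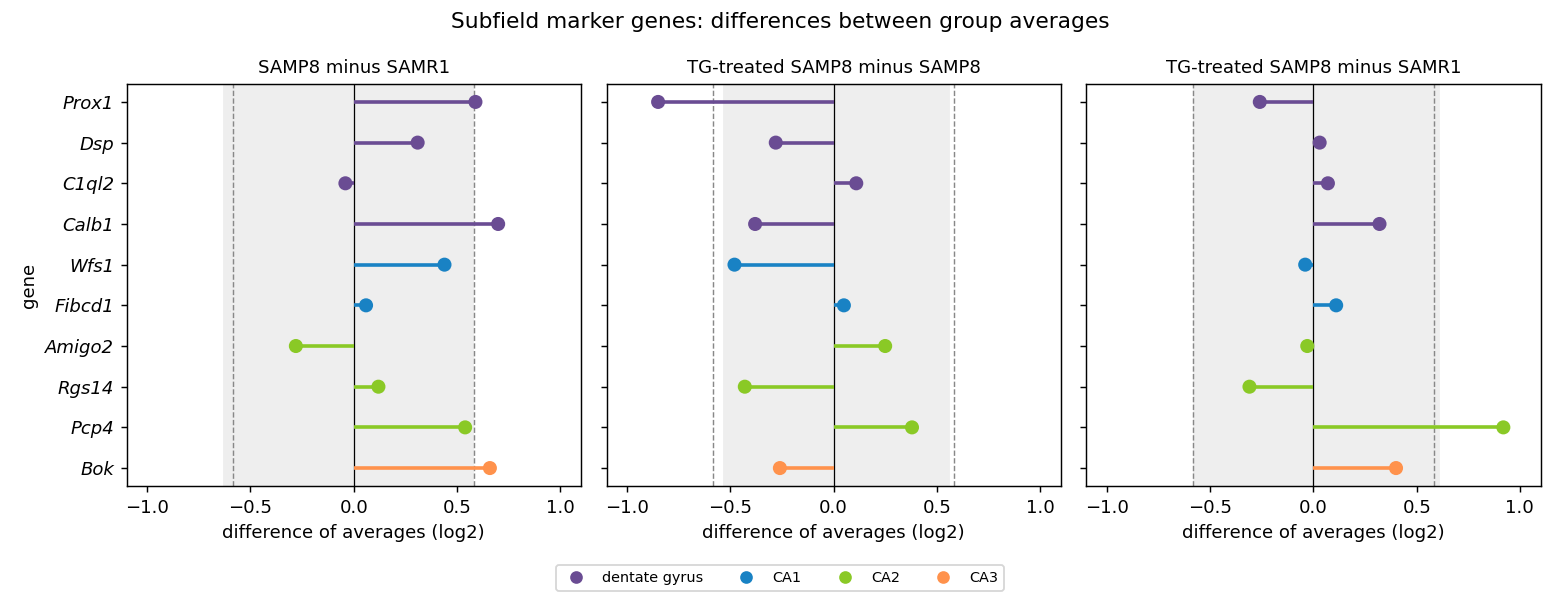
Difference between group averages (log2, horizontal axis) for each subfield marker gene (vertical axis), with 1 panel for each comparison. Gray bands hold the middle 90% of all probe sets, dashed lines mark 1.5-fold, and colors give the subfield. Prox1 in the middle panel (-0.85) and Pcp4 in the right panel (0.92) lie farthest out, and markers of 1 subfield point in opposite directions in the middle panel.

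As a measure of balance, the mean difference of the 4 dentate markers was set against that of the 6 CA markers. Between SAMP8 and SAMR1 the dentate mean was 0.39 and the CA mean 0.26, so the dentate markers lay 0.13 higher. TG against SAMP8 gave means of -0.35 and -0.08, a balance of -0.27. TG-treated SAMP8 against SAMR1 gave means of 0.04 and 0.18, a balance of -0.14. Single genes carried much of these values. The balance with TG against SAMP8 was -0.10 without Prox1 and -0.42 without C1ql2, and that between SAMP8 and SAMR1 was 0.03 without Calb1 or Amigo2 and 0.28 without C1ql2. Between TG-treated SAMP8 and SAMR1 it was 0.01 without Pcp4, -0.04 without Prox1, and -0.23 without Calb1 or Rgs14.

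Within the dentate gyrus and within CA2 the markers lay farther apart than the subfield means did, in all 3 comparisons. For TG against SAMP8, the dentate differences spanned 0.96, from -0.85 for Prox1 to 0.11 for C1ql2, the CA2 differences spanned 0.81 and the CA1 differences 0.53. The subfield means in that comparison were -0.35 for the dentate gyrus, -0.22 for CA1, 0.07 for CA2 and -0.26 for CA3, which rests on Bok alone. The spans between SAMP8 and SAMR1 were 0.74 in the dentate gyrus, 0.82 in CA2 and 0.38 in CA1, with means of 0.39, 0.13 and 0.25, and 0.66 for Bok. In TG-treated SAMP8 against SAMR1, the CA2 markers spanned 1.23, from -0.31 for Rgs14 to 0.92 for Pcp4.

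The differences depended on signal across the whole array. Between SAMP8 and SAMR1, the median difference was -0.08 in the 25% of probe sets lowest in signal and 0.12 in the 25% highest in signal, and 66.9% of the latter had higher averages in SAMP8. The same classes had medians of 0.04 and -0.06 in TG-treated against nontreated SAMP8. The markers of high signal (Prox1, Pcp4, Wfs1 and Calb1, mean averages 10.62 to 11.43) sit where probe sets in general were higher in SAMP8. Set against the median of the 1000 probe sets nearest in signal, the SAMP8 minus SAMR1 differences were 0.62 for Bok, 0.57 for Calb1, 0.47 for Prox1, 0.42 for Pcp4 and 0.31 for Wfs1, and only Bok remained past 1.5-fold. On that scale Prox1 with TG against SAMP8 was at -0.77 and Pcp4 in TG-treated SAMP8 against SAMR1 at 0.89. The part of this dependence in the markers' differences was not tested further. The markers of low signal (C1ql2, Amigo2, Bok and Dsp, mean averages 6.40 to 7.06) lay near the array medians of 6.04 to 6.09, and whether they were above background was not analysed here.

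**Figure D3:**
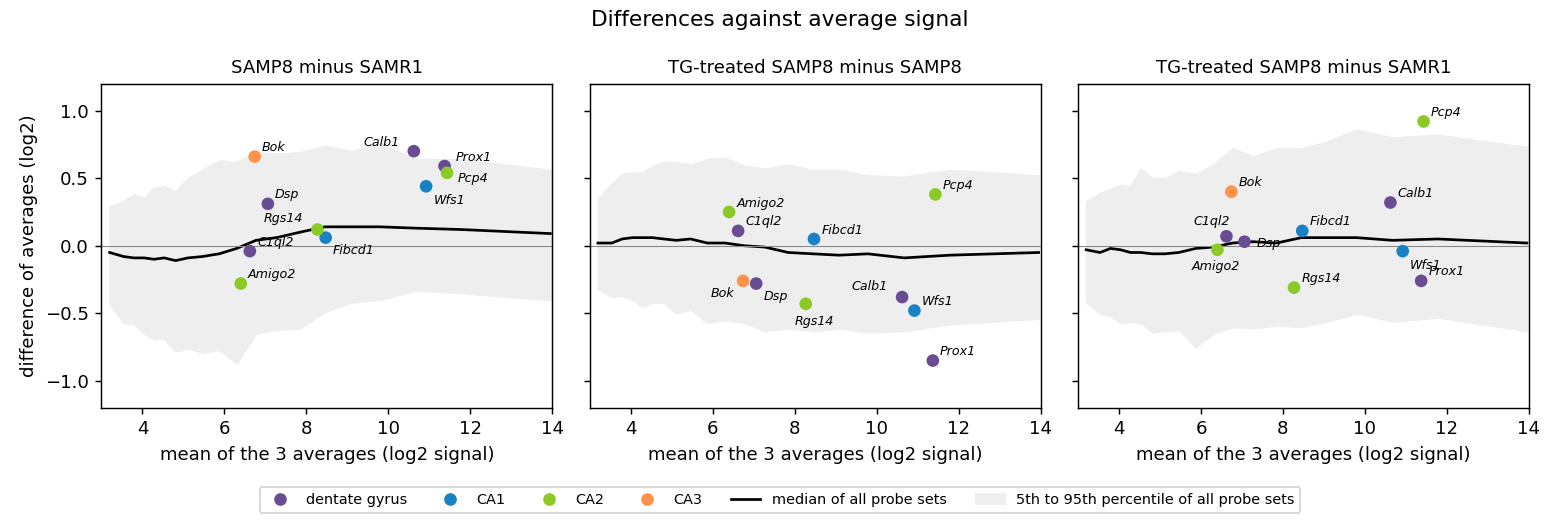
Difference between group averages (log2, vertical axis) against the mean of the 3 group averages (log2 signal, horizontal axis), with 1 panel for each comparison. Points are the 10 subfield markers, colored by subfield; the black line is the median and the gray band the 5th to 95th percentile of all probe sets in 20 classes of signal. In the left panel the line climbs from below 0 at low signal to above 0 at high signal, where Prox1, Calb1, Wfs1 and Pcp4 lie.

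Another 29 genes of the same subfields were examined, from lists of known markers. Of these, 4 were higher and 3 lower by 1.5-fold or more in SAMP8 than in SAMR1, against 5.0% and 6.08% of all probe sets, with a median of 0.19 beside 0.00. TG against SAMP8 gave 1 higher and 5 lower, against 4.48% and 3.74%, with a median of -0.06 beside 0.01. TG-treated SAMP8 against SAMR1 gave 2 higher and 0 lower, against 5.62% and 4.83%, with a median of 0.00 beside -0.01.

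Among the 10 further dentate genes, Npnt, which encodes the matrix protein nephronectin, took the same order as Prox1, with averages of 7.95 for SAMR1, 8.51 for SAMP8 and 7.63 for SAMP8 given TG. It was the 1 gene of its list past 1.5-fold with TG, at -0.88 from SAMP8. Of all probe sets, 3.74% were lower by that fold. The highest of the list in that comparison was Lct, the enzyme lactase that marks granule cells, at 0.34. The list's median was 0.02 between SAMP8 and SAMR1 and -0.10 with TG against SAMP8, where those of the 4 dentate members were 0.45 and -0.33. The further dentate genes ran from -0.62 for Glis3, a zinc finger transcription factor, to 0.58 for Dock10, a guanine nucleotide exchange factor just short of 1.5-fold, between SAMP8 and SAMR1.

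Of the 7 further CA1 genes, 6 were higher in SAMP8 than in SAMR1, as were 49.5% of all probe sets. Spink8, a protease inhibitor of the Kazal type, averaged 5.20 for SAMR1, 6.50 for SAMP8 and 6.33 for SAMP8 given TG, and Ndst4, a heparan sulfate enzyme, averaged 8.92, 9.88 and 9.21 in the same order. These were the members of the list past 1.5-fold between the lines, at 1.30 and 0.96, against 5.0% of all probe sets higher by that fold. Man1a, a Golgi mannosidase, was lowest with TG against SAMP8 at -0.74, Ndst4 was at -0.67, and Mpped1 was highest at 0.13. The list's median was 0.31 between SAMP8 and SAMR1 and -0.17 with TG against SAMP8.

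The 5 further CA2 genes ran from -0.11 for the neurotrophin Ntf3 to 0.81 for Cacng5, an auxiliary subunit of AMPA receptors, between SAMP8 and SAMR1. Cacng5 averaged 6.66 for SAMR1, 7.47 for SAMP8 and 6.62 for SAMP8 given TG, a difference of -0.85 with TG against SAMP8. Stard5, a sterol-binding protein, was the highest of the list with TG, at 0.42 from SAMP8 and 0.61 from SAMR1.

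The 7 further CA3 genes pointed both ways. Iyd, the iodotyrosine deiodinase, averaged 6.90 for SAMR1, 7.88 for SAMP8 and 7.23 for SAMP8 given TG, and like Bok it was highest in SAMP8. Socs2, a suppressor of cytokine signaling, averaged 9.91, 9.29 and 10.07 in that order, and the cadherin Cdh24 averaged 6.42, 5.58 and 6.16, so that both were lowest in SAMP8. Grik4, the kainate receptor subunit enriched in CA3, differed by -0.21 between SAMP8 and SAMR1 and by 0.01 with TG against SAMP8. With the further genes of all subfields added to the members, the dentate minus CA balance was -0.10 between SAMP8 and SAMR1, which is the opposite sign to that of the members alone, and -0.09 with TG against SAMP8.

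**Figure D4:**
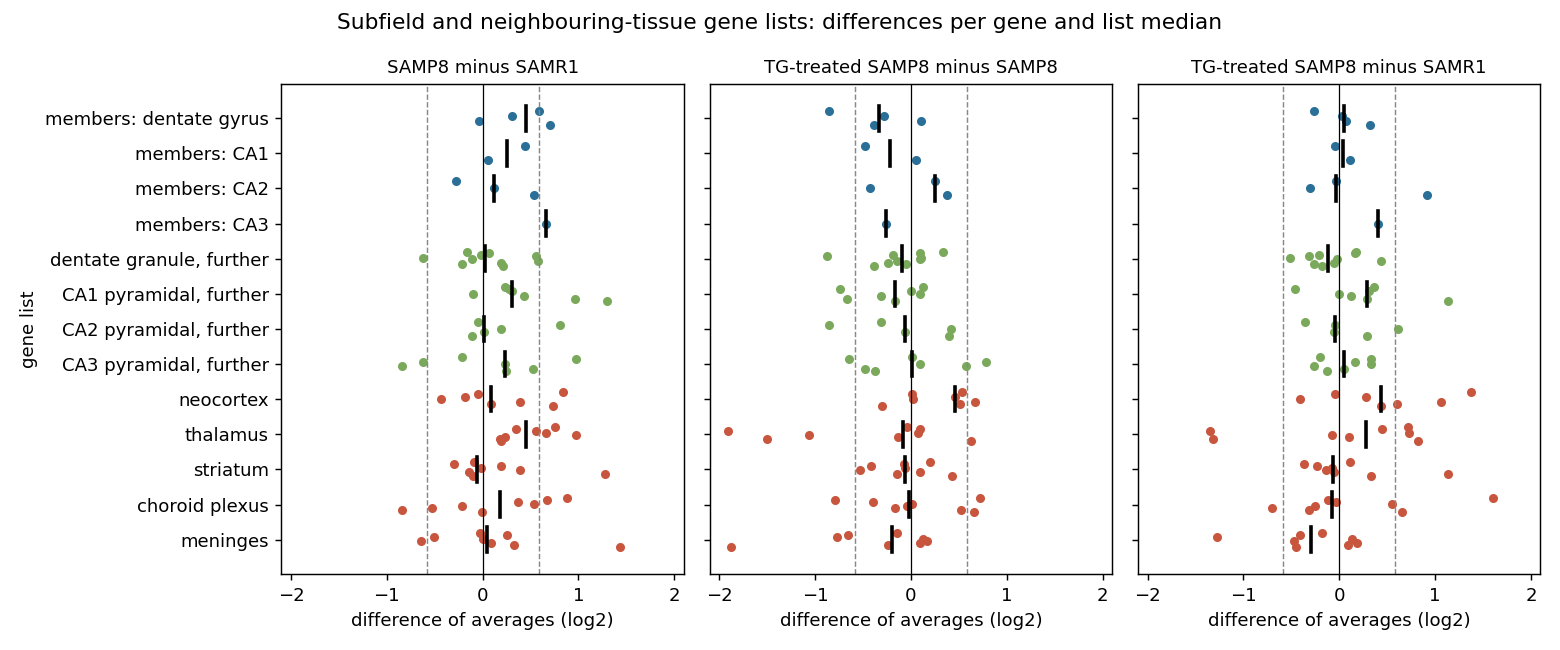
Difference between group averages (log2, horizontal axis) for each gene of the lists on the vertical axis, with 1 panel for each comparison, a dot for each gene and a black bar at the list median. Dashed lines mark 1.5-fold. The upper 4 rows are the 10 members by subfield, the next 4 the further subfield genes and the lower 5 genes of neighboring tissues, of which thalamus reaches from -1.91 (Zic1) to 0.63 in the middle panel.

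Genes of tissue that borders the hippocampus were read beside the markers. For the thalamus, all 8 genes of the list had higher averages in SAMP8 than in SAMR1, with a median of 0.46, where 49.5% of all probe sets were higher. Past 1.5-fold were 3 of them, against 5.0% of all probe sets: Plekhg1 at 0.98, the Wnt effector Tcf7l2 at 0.76 and the glutamate transporter Slc17a6 at 0.66. In TG-treated against nontreated SAMP8, Zic1, a zinc finger factor of medial habenula and septum as well as thalamus, was at -1.91, the kinase Prkcd at -1.50 and Plekhg1 at -1.06, while Tcf7l2 was at -0.04, Slc17a6 at 0.07 and the actin-binding protein Synpo2 at 0.63. The median of the list was -0.08, with 3 genes lower and 1 higher by 1.5-fold or more, against 3.74% and 4.48% of all probe sets. Zic1 averaged 10.91 for SAMR1, 11.47 for SAMP8 and 9.56 for SAMP8 given TG. The mean of the 8 averages was 7.47 for SAMR1, 7.96 for SAMP8 and 7.48 for SAMP8 given TG. Higher averages in SAMP8 than in SAMR1 were thus found for 8 of the 10 markers and for all genes of the thalamus list. Of that list, Lef1 (4.29 to 4.74), Ramp3 (5.16 to 5.39) and Synpo2 (5.13 to 5.95) lay below the array medians in all groups. The part of thalamic tissue in the markers' differences was not tested.

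For the neocortex, 6 of 7 genes had higher averages with TG than in SAMP8, with a median of 0.46, where 50.0% of all probe sets were higher, and 1 was past 1.5-fold, Tshz2 at 0.67, against 4.48%. Of the 6, Rspo1 at 0.02 and Rorb at 0.01 were nearly unchanged, and Cux2 was the lower gene, at -0.30. Against SAMR1, the TG-treated group was past 1.5-fold, as for 5.62% of all probe sets, for Lamp5 at 1.37, for the zinc finger gene Tshz2 at 1.06 and for the sodium channel subunit Scnn1a at 0.60. Lamp5, a membrane protein of upper cortical layers and of some interneurons, averaged 8.73 for SAMR1, 9.57 for SAMP8 and 10.10 for SAMP8 given TG. Rspo1 was lowest in that comparison, at -0.41. Rorb has another probe set, of lower signal, which lay at -1.14 with TG against SAMP8, while the one counted lay at 0.01. The mean of the 7 averages was 8.28 for SAMR1, 8.48 for SAMP8 and 8.75 for SAMP8 given TG. The part of cortical tissue in the difference of Pcp4 was not tested.

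The choroid plexus, meninges and striatum lists had medians of 0.18, 0.04 and -0.06 between SAMP8 and SAMR1 and of -0.02, -0.20 and -0.06 with TG against SAMP8. By the mean of their averages, the striatum list stood at 7.32 for SAMP8 and 7.17 for SAMR1, and the choroid plexus list higher with TG (6.07) than in SAMP8 (6.01), the opposite sign to their medians. Ttr, the transthyretin made by choroid plexus, averaged 8.45 for SAMR1, 9.33 for SAMP8 and 10.05 for SAMP8 given TG, while the choroid plexus gene Kl was at 0.67 and then -0.79 in the same comparisons. Kcne2, below the array median in all groups, was at -0.84 and then 0.52. Of the 8 choroid plexus genes, 4 were higher and 4 lower in each comparison. Past 1.5-fold were 2 higher and 1 lower in each, against 5.0% and 6.08% of all probe sets, then 4.48% and 3.74%. In the meninges list, 3 of 8 genes were lower by 1.5-fold or more with TG against SAMP8, Fmod (-1.88), Dcn (-0.77) and Slc22a6 (-0.66), against 3.74% of all probe sets. Col1a2 (0.17), Col1a1 (0.13) and Aldh1a2 (0.10) were higher. Fmod averaged 4.66 for SAMR1, 6.09 for SAMP8 and 4.21 for SAMP8 given TG, and Slc22a6 averaged 5.37, 5.62 and 4.96. Slc22a6 thus lay below the array median in all groups, and Fmod did in SAMR1 and with TG. In the striatum list 0 of 8 were past 1.5-fold in that comparison, against 4.48% of all probe sets higher and 3.74% lower, with the tachykinin gene Tac1 highest at 0.43.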

How the data were processed

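The authors hybridized 9 samples of hippocampal RNA to Clariom S Mouse arrays and summarized the arrays by SST-RMA in the Transcriptome Analysis Console. The deposited tables, 1 for SAMP8 vs SAMR1 and 1 for TG-treated SAMP8 vs SAMP8, hold group averages as log2 signal for 22206 probe sets, annotated on mm10 (GRCm38). They also hold the authors' fold changes and p-values, which were not used. From pooled averages, no test, standard deviation or interval was computed, and the number of arrays limits the precision. SAMP8 averages were identical in both tables.

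Differences of averages were computed in Python 3.11.15 (numpy 2.4.6, pandas 2.3.3, matplotlib 3.10.9) and tested on simulated data. Members and list genes were matched by symbol, taking the probe set with the highest signal where a gene had several (Nectin3 is listed as Pvrl3). Gene spans are those of RefSeq on GRCm38, found for all 10 members. All 91 genes of 13 further lists were measured. The text names all members and, of each further list, the highest and lowest gene in a comparison described and genes past 1.5-fold; Slc17a7, Neurod6, Grik4 and other list genes within that limit, and the second Rorb probe set, were chosen after their values were seen. Some genes that this rule names are not reported here. Members, lists and fold limits were chosen with earlier results of these data known. Alternatives were folds of 1.1 and 2, centring each group on its median, leaving out the lowest 25% of probe sets by signal, averaging probe sets of a gene, and other forms of the balance. Setting differences against the 1000 probe sets nearest in signal was added after seeing the data.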

Additional observations from a re-analysis of the deposited data

How the results depend on the processing

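No paired analysis was possible because the averages used carry no replicate numbers, and for the same reason no array could be left out. Counts moved with the fold (the shares of all probe sets stand with the comparisons). Between SAMP8 and SAMR1, 6 markers were higher and 1 lower at 1.1-fold, and 0 higher at 2-fold. With TG against SAMP8, 2 were higher and 6 lower at 1.1-fold, and 0 lower at 2-fold. For TG-treated SAMP8 against SAMR1, 3 were higher and 2 lower at 1.1-fold, and 0 higher at 2-fold. Centring each group on its median gave median differences of 0.42, -0.30 and 0.07 in the same order of comparisons, changed no count by more than 1.5 times, and turned C1ql2 between SAMP8 and SAMR1 from -0.04 to 0.01. Against probe sets of like signal, 1 marker in place of 3 was higher in SAMP8 than in SAMR1, the median differences were 0.29 in that comparison and 0.03 for TG-treated SAMP8 against SAMR1, and Fibcd1 between SAMP8 and SAMR1 turned to -0.08. Leaving out the lowest 25% of probe sets by signal, or averaging the probe sets of a gene, could not move a member's value, since each of the 10 had 1 probe set and lay above that limit (4.4).

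The dentate minus CA balance moved with the choice of genes and with how they were averaged. Between SAMP8 and SAMR1 it was 0.13, -0.10 with the further genes, 0.17 by medians, 0.04 with each subfield counted once and 0.14 against like signal. With TG against SAMP8 it was -0.27, -0.09 with the further genes, -0.23 by medians and -0.21 with each subfield counted once. For TG-treated SAMP8 against SAMR1 it was -0.14, -0.18 with the further genes, 0.01 by medians and -0.17 with each subfield counted once. The cause of these moves was not tested.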

Other observations

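Other cell types of the hippocampus were read from the same averages. Of 4 genes of the mossy cells, the excitatory neurons of the dentate hilus, 3 had lower averages with TG than in SAMP8. Of all probe sets, 48.3% were lower. The 3 were the dopamine receptor Drd2 at -0.96, the calcitonin receptor-like receptor Calcrl at -0.57 and calretinin (Calb2) at -0.31. Drd2 alone was past 1.5-fold, against 3.74% of all probe sets lower by that fold. Csf2rb2 was at 0.07. Drd2 averaged 4.29 for SAMR1, 4.63 for SAMP8 and 3.67 for SAMP8 given TG, which is below the median of the array. Calb2 and Drd2 are also made by neurons outside the hilus.

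Among 7 interneuron genes, the peptide Vip averaged 7.23 for SAMR1, 8.69 for SAMP8 and 9.43 for SAMP8 given TG, and the calcium buffer parvalbumin (Pvalb) averaged 6.66, 6.82 and 7.65. The GABA-synthesizing enzymes went the other way with TG against SAMP8, with Gad2 at -0.43 and Gad1 at -0.35, and the peptide Sst was at 0.69. Of 6 genes of excitatory neurons in general, 1 was past 1.5-fold in any comparison. The gene past 1.5-fold was Nrgn, the calmodulin-binding protein neurogranin, which averaged 14.07 for SAMR1, 14.90 for SAMP8 and 15.74 for SAMP8 given TG. Nrgn was higher by that fold in each comparison. Of all probe sets, 5.0% were higher between SAMP8 and SAMR1, 4.48% with TG against SAMP8 and 5.62% between TG-treated SAMP8 and SAMR1. In the same order, 6.08%, 3.74% and 4.83% were lower, against 0 of the 6 genes. Camk2a, another of the 6, had the same average in all groups, equal to the highest of any probe set. Whether its signal was at the upper limit of the array was not tested. The order of the groups for Nrgn was that of Pcp4, and also that of Vip, Pvalb, Lamp5 and Ttr.

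Of 6 oligodendrocyte genes, 5 had higher averages with TG than in SAMP8 (median 0.26), as had 50.0% of all probe sets. The myelin gene Mag was past 1.5-fold at 0.71, as were 4.48% of all probe sets. Mobp was lowest between SAMP8 and SAMR1, at -0.80.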
